A study of Sus scrofa and Bos taurus with 31 samples.

Results

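The ribosomal protein genes of the pig were examined in maps of open chromatin from 8 tissues. They encode the proteins of the large ribosomal subunit (RPL genes and the stalk proteins RPLP0, RPLP1 and RPLP2) and of the small subunit (RPS genes and RPSA). Members were the protein-coding genes of the RefSeq annotation of the pig genome (build Sscrofa11.1) whose symbol is RPL or RPS followed by a number, with an optional suffix A, X or L, together with the P proteins and RPSA. The S6 kinases were left out. This gave 84 genes of 20674 protein-coding genes, 52 of the large and 32 of the small subunit, on 17 chromosomes. They carry 83 symbols, since 2 genes are annotated as RPL18, one on chr1 and one on chr6.

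Chromatin accessibility was measured with ATAC-seq, in which a transposase inserts sequencing adapters into open DNA, in nuclei cryopreserved from fresh tissue. The 16 pig libraries came from 3 brain tissues (cerebellum, cerebral cortex and hypothalamus) and from adipose (subcutaneous), spleen, liver, skeletal muscle and lung of animals P348 and P350. Both were castrated male Yorkshire littermates 6 months old, with no treatment given in the sources used here, so each tissue had 2 libraries from related animals and p-values measure the spread between these. Whole tissues hold many cell types, and a change in the cells present cannot be told apart from a change within a cell. Each library was deposited as a list of peaks with the fold enrichment of each peak over its local background, called the fold below. The lists held 99960 to 217308 peaks covering 64.1 to 156 Mb. The peak lists hold no read counts, and sequencing depth was not used here. Of 22 marker genes of the 8 tissues, 17 had a peak within 2 kb of a start in both libraries of their own tissue. The exceptions were PLIN1 in adipose, TBR1 in cerebral cortex and OTP in hypothalamus, which lacked one in both, and ALB in liver and AGER in lung, which lacked one in animal P350. Several markers were at peaks in most libraries, such as SIM1 and ACTN3 in 16, MYOD1 in 15, and LEP and CBLN1 in 14. Others, such as ADIPOQ, APOH and SFTPC, were at peaks in 2, those of their own tissue. A marker peak alone therefore does not always tell tissues apart. Leukocyte markers were at peaks in 5 (CD3E) and 9 (PTPRC) of the 16 libraries and endothelial markers in 11 (CDH5) and 13 (PECAM1), and their part in the differences below was not tested.

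Ribosomal proteins are needed in every growing cell in nearly equal numbers, and their genes are among the most strongly transcribed in mammals. Their messenger RNAs begin with a run of pyrimidines, the TOP motif, through which growth signals acting by mTOR control translation. Their promoters are usually short, lack a TATA box and are bound by common factors of the ETS, SP and YY1 families. A few members have a paralogue with a narrower pattern of expression, such as RPL3L in striated muscle and RPL10L in testis.

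A pyrimidine run was visible in the genome around the annotated start of some members. The 30 bases from 15 before to 15 after the start are shown for 12 members, with the longest run of C and T in capitals. These were chosen among genes named below to show the run, and RPSA and RPL18 on chr1 have short ones. Over all members the median longest run was 6 bases, against 4 in all genes. The sequences were read from the Sscrofa11.1 genome in the direction of transcription, and the start is the 16th base.
RPL7, chr4:62602415-62602444, plus strand: cgcatgcgctaaCTTCCTCTTTCCCggctg
RPL10, chrX:124927234-124927263, plus strand: caggcgtgggagcgCCTCTTTTCCTTCggc
RPL13A, chr6:54564778-54564807, plus strand: ctgcgccaagagTTCCTTCTTTCCCaggca
RPL15, chr13:10716358-10716387, plus strand: ggagaaagcgTCTTCCTTTCCgtctgtcgg
RPL26, chr12:53553439-53553468, minus strand: gacgactgtggTTCTCTTCCCTTTTgcggc
RPL37, chr16:25803512-25803541, minus strand: atagcggaagtgCTTTCTCTTCCggcctct
RPLP0, chr14:40223929-40223958, minus strand: cggcgtacagCCCTCCTCTCgccaggcgtc
RPLP2, chr2:507876-507905, plus strand: cccccgcgccggcgTCTTCCTTTCTgtccc
RPS20, chr4:75762194-75762223, plus strand: aggcctcacgCCTTCCTCTTTgaagaagac
RPS21, chr17:61763591-61763620, plus strand: cggCCCTTCCTTTCTgcgctcgcgctcatc
RPSA, chr13:24072536-24072565, plus strand: ccgcgctgcccagaccggggTCCacacggc
RPL18 (chr1), chr1:84378438-84378467, plus strand: ggaggaggtaccaTCatgggagttgacaac

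A run of at least 8 pyrimidines lay within these 30 bases in 29 of the 84 members (34.5%), against 11.8% of the 20664 genes with a complete promoter sequence. An annotated start at a C followed by at least 4 pyrimidines was found in 18 members (21.4%) and in 3.02% of all genes. The runs of RPL7, RPL10, RPL15 and RPL37 spanned the start. RPSA had a longest run of 3 bases, although its peak was among those of the highest fold. The annotated start of RPL18 on chr1 falls on the letters ATG, and this gene has a longest run of 2 bases. In the 300 bases from 250 before to 50 after the start, searched on both strands, the ETS core CCGGAAG was found in 31 members (36.9%, against 10.7% of all genes) and the SP core GGGCGG in 50 (59.5%, against 49.8%). The YY1 motif AAGATGGCG was in 4 members (4.76%, against 1.60%) and the NRF1 motif GCGCATGCG in 3 (3.57%, against 1.89%). The box TATAA, searched on the coding strand from 40 to 15 bases before the start, was in 5 members (5.95%, against 1.82%). The median GC content was 58.7% in both, while the ratio of observed to expected CpG was 0.852 in members and 0.640 in all genes. These letters are a description of the annotated windows, and a start that is misplaced by a few bases changes the count.

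Nearly every ribosomal protein gene had open chromatin at its start in every tissue. A peak within 2 kb of an annotated transcription start site (TSS) was called the TSS peak. It was listed for 79 to 84 of the 84 members per library. These shares were 94.0% to 100%, against 70.7% to 81.1% of all protein-coding genes. In all, 77 members (91.7%) had a TSS peak in all 16 libraries, against a background of 54.7% of all genes. A start lay inside the TSS peak in all 16 libraries for 61 members (72.6%, against 41.8% of all genes). No peak served as TSS peak of 2 members in any library.

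The lowest count came from the cerebellum of animal P348, the library with the smallest share of all genes as well. RPL4, RPL6, RPL19, RPL38 and RPS4X lacked a TSS peak in that library only, and the cerebellum of animal P350 had one for each of them, at folds of 3.46, 4.07, 2.67, 2.54 and 5.43. These are ordinary subunit proteins, and in the other 15 libraries their folds reached 6.94, 8.24, 5.09, 5.41 and 10.6. With this library left aside, 82 of 84 members had a TSS peak in every library.

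The other 2 genes lacked a peak in several tissues. RPL10L (chr1:176603177-176604116, minus strand) is the intronless copy of RPL10 that is known from testis, and it was the only member with a single exon. Its TSS peak was listed in 12 libraries, with folds of 2.62 to 3.85, and was absent from both skeletal muscle libraries and from the cerebral cortex and liver of animal P348. The start of RPL10L lay inside that peak in 4 libraries. RPL18 on chr1 (chr1:84378453-84379052, plus strand) is a short locus with a peak in 11 libraries, at folds of 2.13 to 3.47, and again in neither skeletal muscle library. Both genes stood at the bottom of the family in fold. By comparison, RPL10 (chrX:124927249-124929791) ranged from 3.06 to 6.78 and RPL18 on chr6 (chr6:53974353-53978681) from 3.55 to 7.09 over the 16 libraries. Ribosomal protein genes have many processed copies in mammalian genomes, and reads of low mapping quality had been discarded before the peaks were called. The part of that filter in the low folds was not tested.

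TSS peaks of the ribosomal protein genes were higher and narrower than those of the average gene in each library. The median fold of members lay between 3.98 (adipose P350) and 8.40 (liver P348), which was 1.12 to 1.38 times the median over all genes with a TSS peak in the same library. Median widths ran from 609 bp (cerebellum P348) to 1066 bp (adipose P348), or 0.753 to 0.929 times the median of all genes. Distal peaks, those within 10 kb of a member's start and over 2 kb from every protein-coding TSS, numbered 0.393 to 1.02 per member. All genes had 0.592 to 1.26 per gene, and members had fewer than all genes in 15 of 16 libraries. The exception was the skeletal muscle of animal P350, with 0.929 per member and 0.877 per gene. The share with at least 1 distal peak was 28.6% to 67.9% of members and 39.9% to 63.4% of all genes. It was higher in members in both libraries of adipose, skeletal muscle and spleen. Peaks near the start of a neighbouring gene are left out of these counts. With only a member's own starts set aside, members had 1.19 per gene on average. The part of neighbouring genes in the lower counts was not tested. These shares and medians are given without a test.

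**Figure D1:**
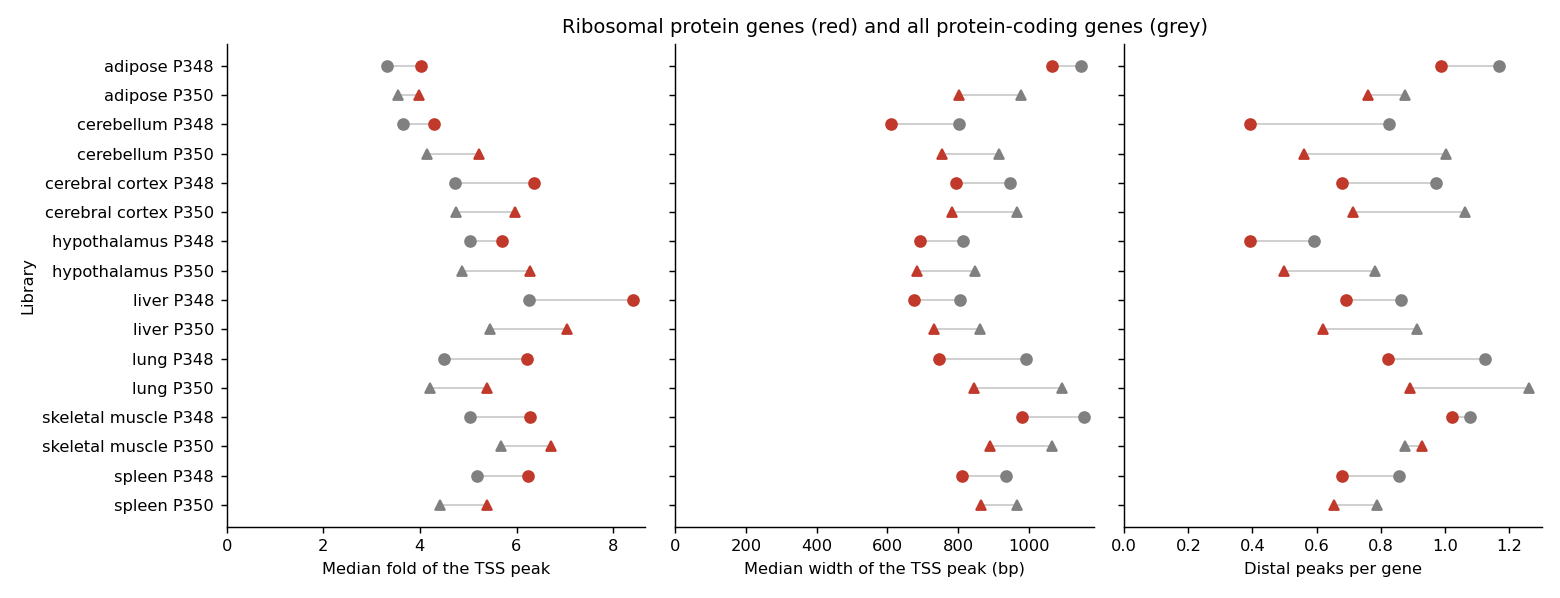
Median fold of the TSS peak, its median width in bp, and distal peaks per gene in each of the 16 libraries, for the 84 ribosomal protein genes (red) and all protein-coding genes (grey); circles are animal P348 and triangles animal P350. Red lies right of grey for fold and left of grey for width in every library, and left of grey for distal peaks except in skeletal muscle P350.

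Differences between members were set beside those between tissues. On the log2 scale, relative to the median of the library over all genes tested, mean folds of the 77 members with a peak in all libraries ran from -0.61 (RPLP2) to 0.93 (RPSA), with a median of 0.16. The median member spanned 0.57 on this scale between its lowest and highest tissue mean, against 0.60 for all 11314 genes tested. The small subunit had a median of 0.26 over 31 members and the large subunit 0.00 over 46.

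At the top were RPSA, the laminin receptor protein of the small subunit, RPL37, RPL34, RPL15 and RPL22L1. RPSA (chr13:24072551-24081536) had a lowest fold of 7.52 in adipose P348, a median of 10.1 and a highest fold of 15 in cerebral cortex P350. RPL15 (chr13:10716373-10719959), which shares a divergent promoter region with NKIRAS1 at a distance of 211 bp, ranged from 6.28 to 13.3 around a median of 10.6. RPL37 (chr16:25800883-25803526) ranged from 6.68 to 12.5 with a median of 10.5. RPL34 (chr8:113467779-113472058, minus strand) ranged from 7.25 to 14.5 with a median of 9.88. In these 4 genes the lowest raw fold was in an adipose library, and adipose had the lowest median folds of all genes (3.32 and 3.55). Of the stalk proteins, which recruit elongation factors to the ribosome, RPLP0 (chr14:40219196-40223943) stood high with a median fold of 10.4, RPLP1 (chr1:167296084-167298264) had 5.15, and RPLP2 (chr2:507891-509818) had 3.62.

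At the bottom, beside RPL10L and RPL18 on chr1, were RPLP2, RPL38 and RPL8. RPL8 (chr4:136105-138651) had folds of 2.34 to 5.47 around a median of 3.40. RPL38 (chr12:6884899-6889966) had folds of 2.20 to 5.41 in its 15 libraries with a peak. RPLP2 carries a pyrimidine run of 11 bases across its start and RPSA one of 3, so the length of the run and the fold did not go together in this pair. Over the tested members, the median relative fold was 0.16 in the 27 with a run of 8 or more and 0.15 in the 50 without. For the ETS core it was -0.01 in the 28 members that hold it and 0.24 in the 49 that do not, while over all genes tested it was 0.17 with and -0.04 without.

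**Figure D2:**
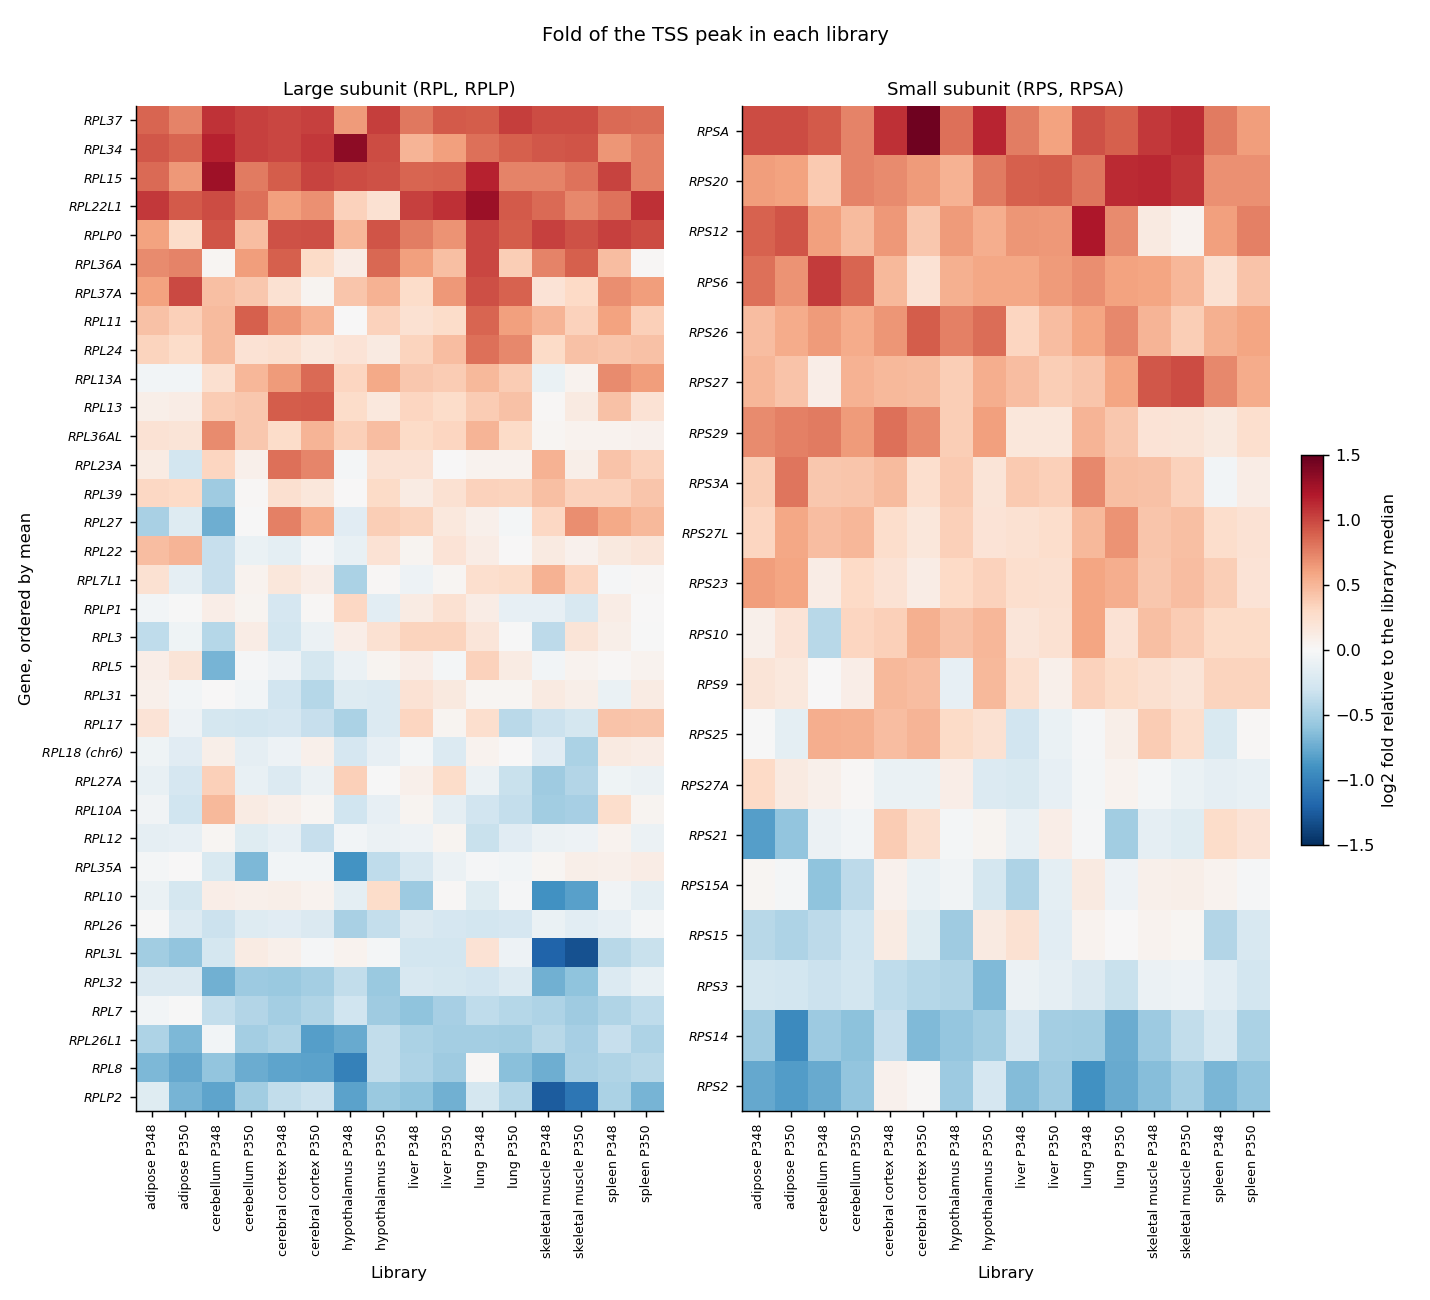
Fold of the TSS peak of the 55 ribosomal protein genes that are named in the text and had a peak in all 16 libraries, as log2 relative to the library median over all genes tested; rows are genes ordered by their mean within each subunit, columns are libraries. RPL37, RPL34 and RPSA are red in every library, RPLP2 is blue in every library and RPL8 in all but 1, and RPL3L is at its darkest blue in skeletal muscle.

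Differences between tissues were then tested with limma's moderated F-test on the relative log2 fold, fitted on all 11314 genes with a TSS peak in all 16 libraries. With Benjamini-Hochberg adjustment at 0.05, 43 of the 77 members differed between tissues (55.8%), 26 of 46 of the large and 17 of 31 of the small subunit, and the background was 62.7% of all genes. With no centring on the library median the count was 74, where 86.6% of all genes were called, since folds of all genes then differ between libraries (medians of 3.32 to 6.26). When genes were kept only if their 16 TSS peaks shared a base, 40 of 71 members were called, and 64.6% of all genes.

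The smallest adjusted p among members with a common peak belonged to RPL13, a large subunit protein (chr6:410923-413396, minus strand). Its folds were 10.2 and 10.4 in cerebral cortex and 4.03 and 4.32 in adipose. Cerebellum had 5.31 and 6.45, hypothalamus 6.94 and 6.29, liver 9.0 and 7.75, lung 7.05 and 7.02, skeletal muscle 5.79 and 6.84, and spleen 7.90 and 5.81, in the order P348 and P350. In raw fold both cortex libraries lay above the other 14 and both adipose libraries below them. Relative to the library median (log2), cortex was still highest (0.91 and 0.92), while adipose (0.08 and 0.11) lay near skeletal muscle (0.02 and 0.14). The relative fold was 0.65 ± 0.08 (log2, SE) higher in cortex than in the mean of the other 7 tissues (limma, adjusted p = 0.000604), and the F-test had an adjusted p of 0.000751.

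RPS25, a small subunit protein at the head of the 40S particle (chr9:46237911-46242174, minus strand, 22 bp from the divergent start of TRAPPC4), was high in brain and muscle. Cerebellum had folds of 5.95 and 7.07, cortex 7.49 and 7.82, hypothalamus 6.98 and 6.59, and skeletal muscle 7.47 in both animals. Adipose had 3.78 and 3.61, spleen 4.96 and 5.06, lung 5.33 and 5.48, and liver 5.92 and 6.0. All 6 brain libraries lay above all adipose, lung and spleen libraries. The 3 brain tissues exceeded the other 5 by 0.43 ± 0.06 (log2, SE; limma, adjusted p = 0.000196).

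RPS21 (chr17:61763606-61764823) was lowest in adipose, with folds of 2.14 and 2.64 against 3.58 to 7.07 elsewhere, a difference of -0.72 ± 0.11 (limma, adjusted p = 0.000888).

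RPL22L1 (chr13:109495771-109499495, minus strand), the paralogue of RPL22, had folds of 14.6 and 13.7 in liver, 13.1 and 9.73 in lung, and 10.2 to 10.7 in skeletal muscle and spleen. The brain libraries had 6.55 to 8.78 and adipose 7.93 and 7.57, and the lowest pair was hypothalamus with 7.29 and 6.55. Relative to the library median (log2), hypothalamus (0.35 and 0.22) and cerebral cortex (0.61 and 0.68) lay below all other libraries. Cerebellum (0.98 and 0.83) and adipose (1.06 and 0.92) lay within the range of liver, lung, skeletal muscle and spleen (0.72 to 1.28). On this scale the mean of the 3 brain tissues was 0.36 ± 0.07 (log2, SE) below that of the other tissues (limma, adjusted p = 0.00184). RPL22 itself (chr6:67092892-67102086, minus strand), with folds of 3.21 to 7.40, was also lower in brain, by 0.27 ± 0.07 (limma, adjusted p = 0.00708).

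**Figure D3:**
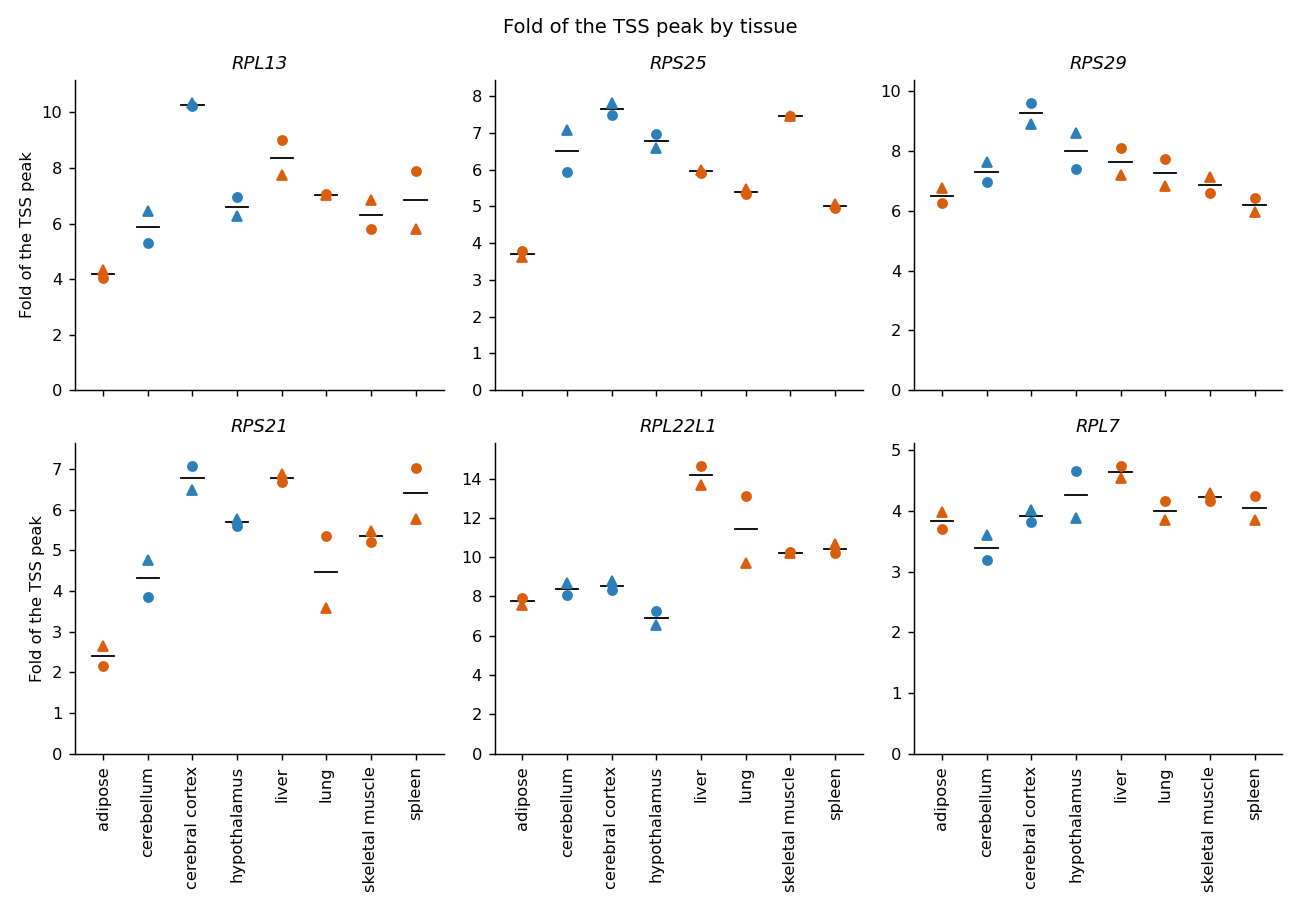
Fold of the TSS peak by tissue for RPL13, RPS25, RPS29, RPS21, RPL22L1 and RPL7, with brain tissues in blue and the others in orange, circles for animal P348, triangles for animal P350 and a bar at the mean of the 2 animals. RPL13 is highest in cerebral cortex at 10.2 and 10.4, RPS29 also in cerebral cortex at 9.61 and 8.91, and RPS21 is lowest in adipose at 2.14 and 2.64, whereas RPL7 stays between 3.19 and 4.74.

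RPL13A (chr6:54551772-54568752), a large subunit protein, had raw folds of 3.70 and 3.87 in adipose, below all others. Cerebral cortex had 8.49 and 9.87, where animal P350 had the highest fold of all libraries. Relative to the library median (log2), adipose (-0.04 and -0.05) lay near skeletal muscle (-0.10 and 0.06). RPS29 (chr1:179454923-179456847, minus strand), a zinc-finger protein of the small subunit, was highest in cerebral cortex with 9.61 and 8.91, above its range of 5.95 to 8.60 elsewhere. Relative to the library median (log2), adipose (0.71 and 0.76) lay near cerebral cortex (0.82 and 0.70) and cerebellum (0.77 and 0.64). Hypothalamus (0.37 and 0.62) lay below adipose on this scale. The mean of the 3 brain tissues was 0.30 ± 0.06 (log2, SE) above that of the other 5 (limma, adjusted p = 0.00171).

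Each tissue was next compared with the mean of the other 7. Over the 8 tissues, 37 differences of a member were higher and 47 lower, where all genes had 8.03% of their tests higher and 7.69% lower. Cerebral cortex had the most higher members, 12 of 77 (background 6.38% of all genes), by 0.34 to 0.68 on the log2 scale. They included RPL13, RPS2, RPL23A, RPL13A, RPS25, RPS29, RPS21, RPL3L, RPSA and RPL27. RPL31 and RPL37A were lower there (background 3.35%). The higher differences of all tissues were fewer without cortex P348, cortex P350 or skeletal muscle P348. The share of the tests of all genes that were called higher fell in these fits too. Each such fit leaves 1 library in that tissue.

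Skeletal muscle had the most lower members, 14 of 77 (background 17.8% of all genes), a share near the background. Beside RPL3L they included RPL10, RPS12, RPLP2, RPL13A and RPL10A. RPS12, a small subunit protein (chr1:30920804-30923392, minus strand), had folds of 6.30 and 6.46 in muscle, below all libraries but cerebellum P348 at 6.25, while lung P348 reached 12.6. The difference for RPS12 was -0.60 ± 0.11 (limma, adjusted p = 0.00115). In muscle 4 members were higher (background 13.8%), RPS27, RPS20 and RPL7L1 among them, and RPS27 had folds of 10.9 and 12.2 there against at most 9.92 elsewhere. Without skeletal muscle P348 or P350 the lower differences over all tissues were fewer, and so was the share over all genes.

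In adipose, 7 members were higher (background 17.4%) and 12 lower (background 11.1%). The higher ones were RPL7, RPL22, RPS29, RPS23, RPS27A, RPS12 and RPL37A relative to the adipose median, although their raw folds were not the highest: RPL7 (chr4:62602430-62605892) had 3.70 and 3.99 in adipose within a range of 3.19 to 4.74 over all libraries. Adipose libraries had the lowest median folds of all genes, 3.32 and 3.55, so a member whose fold varies little ranks high there. Cerebellum had 6 higher (background 11.9%) and 7 lower members (background 6.85%), hypothalamus 1 higher (3.72%) and 4 lower (3.18%), liver 1 higher (6.72%) and 3 lower (11.4%), and spleen 3 higher (3.62%) and 5 lower (6.86%). Lung had 3 higher members, RPL24, RPL37A and RPL3L, against 0.716% of all genes, and 0 lower against 0.981%.

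Comparing the 3 brain tissues with the other 5 gave 13 higher members of 77 (background 18.4%) and 14 lower (background 12.5%). Among the higher were RPS25, RPL3L, RPS2, RPS29, RPL13, RPL34, RPL10, RPL36AL, RPS26, RPL13A, RPS21 and RPL10A. Lower were RPL22L1, RPL31, RPL35A, RPL32, RPS3, RPL22, RPL17, RPL39, RPL37A, RPS23, RPL24, RPS20, RPL5 and RPS15A. With no centring, 7 members were higher (9.34% of all genes), and the number lower changed little. RPL17 (chr1:99044511-99048406, minus strand) was 0.36 ± 0.09 lower in brain (limma, adjusted p = 0.00907). Its highest raw folds were 9.0 and 6.61 in liver and 7.85 and 6.65 in spleen. Relative to the library median (log2), skeletal muscle (-0.32 and -0.26) and lung P350 (-0.40) lay within the brain range of -0.47 to -0.20.

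The smallest adjusted p of all members, 0.000118 by limma's F-test, was that of RPL3L (chr3:40004907-40016702, plus strand), the form of RPL3 found in striated muscle. It came from peaks at different places. The annotation gives 4 starts for RPL3L, and the start of NDUFB10, a subunit of respiratory complex I on the minus strand at chr3:40005650, lies 743 bp inside the first of them. In the 14 libraries of other tissues the peak nearest to an RPL3L start was the one over the NDUFB10 start, with folds of 2.64 to 6.29, and the 2 muscle libraries had that peak too, at 3.11 and 3.27.

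A peak over the last 2 RPL3L starts (chr3:40007873 and chr3:40008317) was listed in both skeletal muscle libraries and in no other. It spanned chr3:40007710-40008869 in animal P348 (1160 bp, fold 2.48) and chr3:40007700-40008807 in animal P350 (1108 bp, fold 2.51). Cerebellum P348 had a peak of 232 bp, at a fold of 2.75, that ended before these starts. Muscle libraries had 4 peaks each that touched RPL3L, covering 3090 and 2708 bases, where the other libraries had 2 or 3 covering 898 to 2351. These counts include the NDUFB10 peak and, in muscle and some other libraries, the edge of a peak over the MSRB1 start (chr3:40017161). That MSRB1 peak was listed in all 16 libraries and counted only where its edge reached the end of RPL3L (chr3:40016702). The calls of RPL3L as higher in brain, cerebral cortex, hypothalamus and lung set the NDUFB10 peak of those tissues against a mean that includes the other peak of muscle. The call of RPL3L as lower in muscle (-1.09 ± 0.10, limma, adjusted p = 7.97e-06) therefore compares a peak found in muscle with the NDUFB10 promoter of the other tissues. RPL3 (chr5:8922697-8929768) had its start inside the TSS peak in all 16 libraries, at folds of 2.91 to 9.13 with muscle at 4.37 and 7.08, and did not pass the F-test (adjusted p = 0.136, limma).

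**Figure D4:**
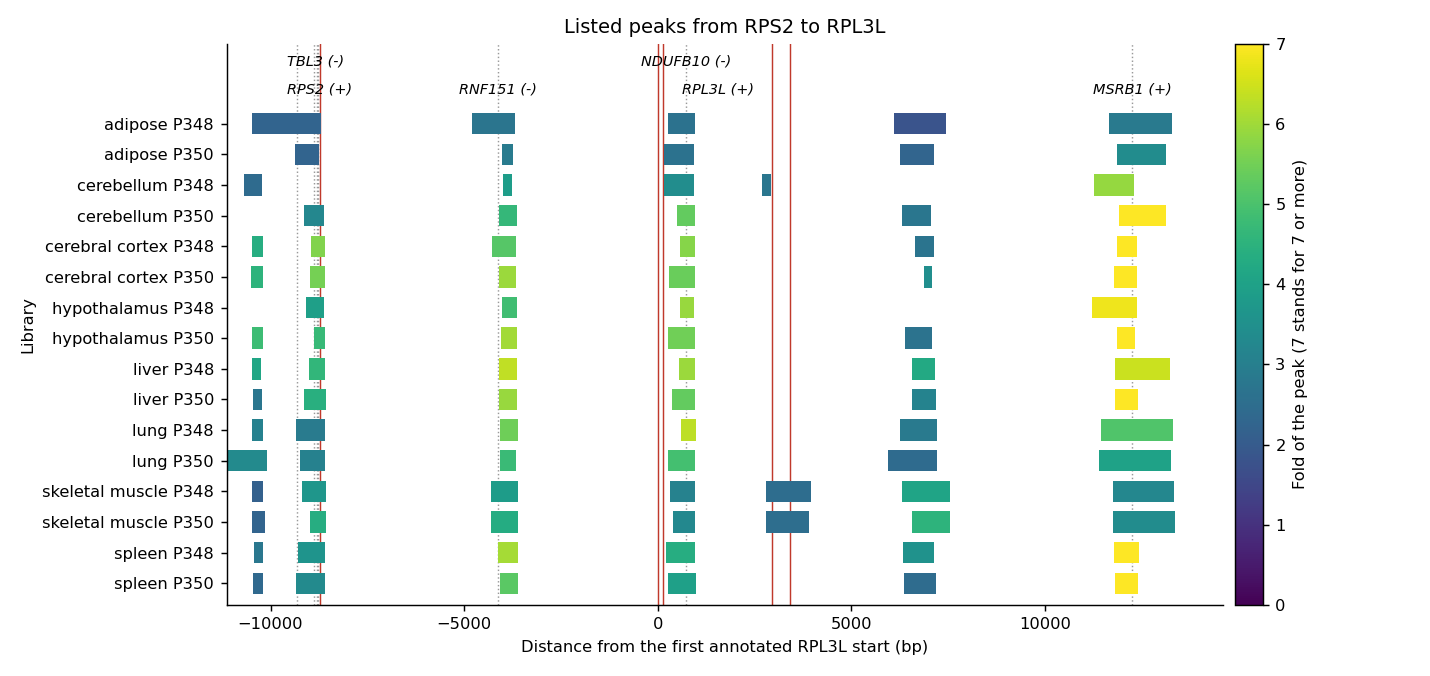
Listed peaks between RPS2 and RPL3L in the 16 libraries, as bars from first to last base on an axis of bp from the first annotated RPL3L start and coloured by fold; red lines are annotated starts of RPS2 and RPL3L and dotted grey lines those of neighbouring genes, with the strand in brackets. A bar over the starts at 2966 and 3410 bp is found in the 2 skeletal muscle libraries alone, and every library has a bar inside RPS2 between the starts of RNF151 and RPL3L.

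RPS2, the neighbour of RPL3L on chr3 (chr3:39996179-40003110, plus strand), also had a start that its peaks did not single out. Its annotated start lies 41 bp from that of TBL3 on the other strand, and a peak covered it in 14 libraries. A further peak inside the gene was listed in all 16 libraries, close to the annotated start of RNF151 on the minus strand (chr3:40000782). These peaks shared chr3:40000925-40001147, which begins 4746 bp downstream of the annotated start, and had folds of 2.72 to 6.32, above those of the peak nearest to the annotated start in 14 of 16 libraries. The call of RPS2 as higher in cortex (0.68 ± 0.09, limma, adjusted p = 0.00115) rests on the upstream peak, with folds of 5.67 and 5.53 in cortex and 2.23 to 4.72 in the other 12 libraries with a peak over the start. Adipose P350 and cerebellum P348 had no peak over the start. In adipose P350 the fold in the fit (2.24) came from a peak at chr3:39995548-39996171, which ends just before the start. In cerebellum P348 the fold in the fit (2.42) came from a separate peak 1483 bp from the start. In RPL27A, whose annotated start lay in no TSS peak of any library, the peak was up to 764 bp away. RPL11, RPS15 and RPL27 had their start inside the peak in 3 or 4 libraries only.

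A divergent protein-coding start within 1000 bp upstream was annotated for 19 members (22.6%, against 10.0% of all genes). The closest were RPL4 with ZWILCH (19 bp), RPL12 with LRSAM1 (20 bp), RPS25 with TRAPPC4 (22 bp), RPS2 with TBL3 (41 bp) and RPS27A with CLHC1 (50 bp). A peak there belongs to both genes and cannot be assigned to one of them.

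Of the other paralogues, RPL7L1 (chr7:37940549-37948258), a nucleolar assembly factor related to RPL7, had folds of 3.22 to 8.18, and its 2 highest were skeletal muscle with 8.18 and 7.74. It was 0.41 ± 0.13 (log2, SE) higher there (limma, adjusted p = 0.0248). RPL36AL (chr1:179476638-179477820, minus strand) ranged from 4.43 to 8.81 and RPL36A (chrX:83018305-83022285) from 4.18 to 11.5, the latter with an adjusted p of 0.463 in the F-test by limma. RPL26L1 (chr16:51267492-51276692, minus strand) stood low, at 2.50 to 5.21, and RPL26 (chr12:53548313-53553453, minus strand) at 3.27 to 6.20. RPS27L (chr1:108881330-108886334), a paralogue induced by p53, ranged from 4.76 to 8.48 and RPS27 (chr4:95697869-95699481, minus strand) from 4.36 to 12.2. RPL39 (chrX:98178148-98181439, minus strand), a small protein at the exit of the peptide tunnel, ranged from 2.82 to 7.91, and its lowest value was in cerebellum P348.

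Widths of the TSS peaks differed between tissues for few members. In the F-test on log2 width, 3 of 77 members passed (3.90%, background 9.55%), RPS6, RPS3A and RPS20, and the median range over tissue means was 0.75 on the log2 scale against 0.82 for all genes. The count was 7 without adipose P348 (12.1% of all genes), 8 without adipose P350 (12.8%), 10 without cerebellum P350 (19.0%) and 5 with no centring (14.2%).

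RPS6, the protein phosphorylated by the S6 kinases (chr1:203444360-203447643), was widest in spleen, with 1462 and 1494 bp, and in cerebral cortex, with 1382 and 1507 bp. The other 12 libraries had 690 to 966 bp, with no overlap (limma, adjusted p = 0.00390). RPS3A (chr8:77889616-77893740, minus strand) measured 2502 and 2558 bp in spleen and 743 to 1251 bp in the other 14 libraries (limma, adjusted p = 0.00997). In bp, RPS20 (chr4:75762209-75763449) was narrowest in liver, with 517 and 531 bp, and reached 1388 bp in adipose P348. On the centred log2 scale of the test its lowest tissue mean was in lung (-0.94) and its highest in hypothalamus (0.03; limma, adjusted p = 0.0473), a call that was lost in 12 of 25 alternatives. RPS6 and RPS3A, wide in spleen, were lower there in relative fold, by 0.31 and 0.39 on the log2 scale (limma, adjusted p = 0.0487 and 0.0369). RPL24 did not pass (limma, adjusted p = 0.0569).

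The widest TSS peak on average belonged to RPL7, a large subunit protein, with 1885 to 2238 bp in all 16 libraries. RPS27A, which is made as a fusion with ubiquitin (chr3:85989609-85992257, minus strand), had 1291 to 1430 bp in 15 libraries and 778 bp in hypothalamus P348. RPL10, by contrast, had 4605 and 3767 bp in skeletal muscle, above the 402 to 2417 bp of the other libraries, but its F-test on width did not pass (limma, adjusted p = 0.129). In fold, RPL10 was lowest in muscle at 3.06 and 3.54, although adipose P350 had 3.32, and the difference was -0.80 ± 0.13 (limma, adjusted p = 0.000424). The narrowest on average were those of RPL36A, with 317 to 666 bp, RPL10L and RPL38.

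**Figure D5:**
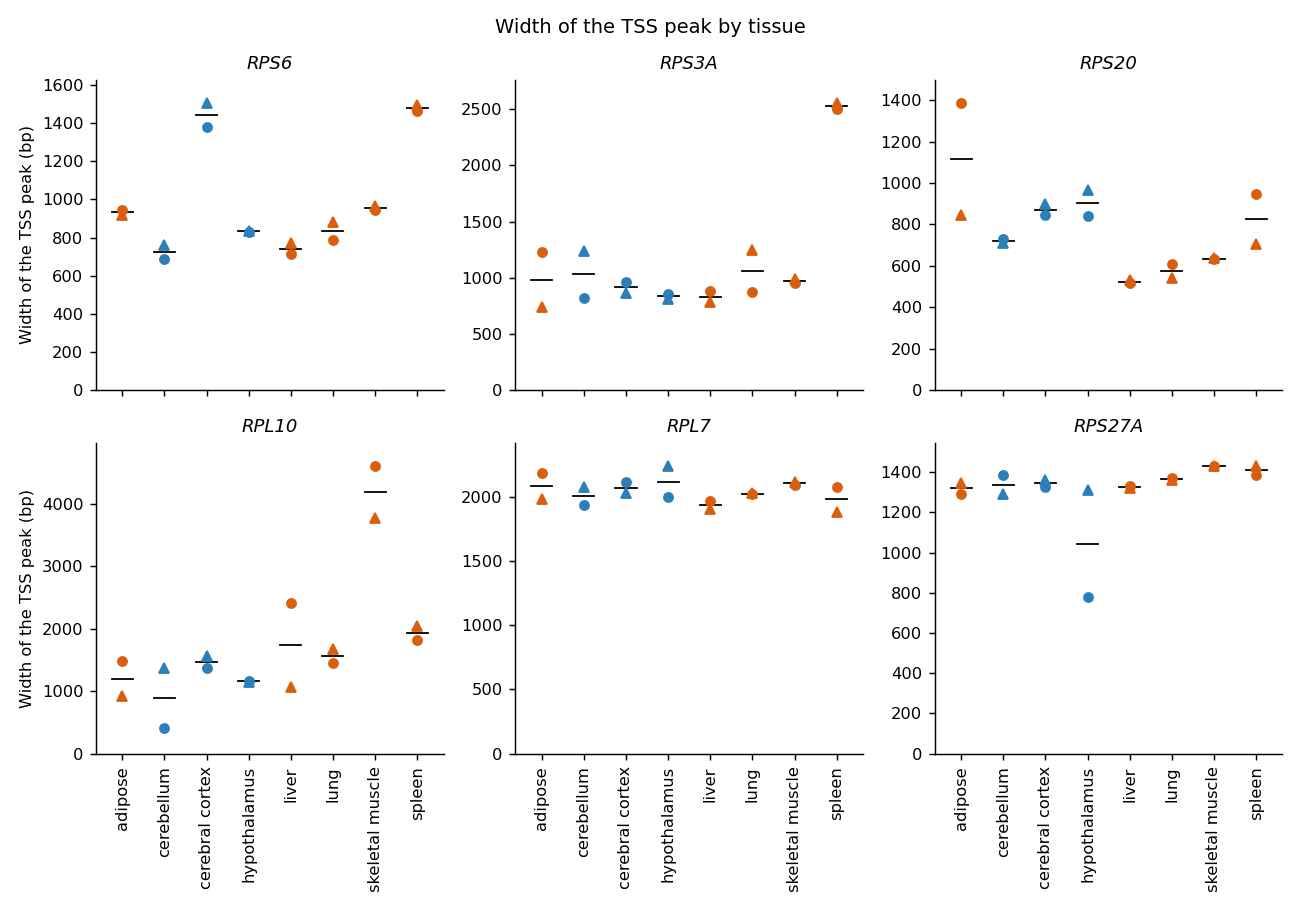
Width in bp of the TSS peak by tissue for RPS6, RPS3A, RPS20, RPL10, RPL7 and RPS27A, with brain tissues in blue and the others in orange, circles for animal P348, triangles for animal P350 and a bar at the mean. RPS6 is wide in spleen and cerebral cortex, RPS3A in spleen at 2502 and 2558 bp and RPL10 in skeletal muscle, while RPL7 stays near 2000 bp throughout.

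Distal peaks varied between members. Over the 16 libraries RPS3 had the most distal peaks, 47 in sum, followed by RPS15 with 39, RPS14 with 37, and RPL27A and RPS10 with 36 each. All 5 genes had at least 1 distal peak in each of the 16 libraries. RPS3, a protein at the entry of the mRNA channel (chr9:9612939-9630404), has 4 annotated starts, which widens the window in which a distal peak can lie. RPL4, RPL6, RPL10L, RPL23A, RPL35A, RPLP2 and RPS2 had 0 distal peaks in all libraries. The peak inside RPS2 was not counted as distal, since it lies within 2 kb of the RNF151 start. In the F-test on log2 distal peak bases, 12 of 61 members with enough distal bases passed (19.7%, background 30.4%). Removing skeletal muscle P348 or P350 left 5 each (19.3% and 18.5% of all genes), and removing liver P348 left 7 (25.3%). In lists of equal length 19 of 52 members passed, and 40.5% of all genes.

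RPS9, a small subunit protein near the mRNA path (chr6:55920930-55927280, minus strand), had 0 distal bases in both cerebellum libraries and 911 to 2345 in the other 14 (limma, adjusted p = 0.00189). RPL5 (chr4:124359786-124367612, minus strand), which binds the 5S RNA, had 1064 and 2493 bases in cerebral cortex, 563 and 233 in spleen and 406 in adipose P350, and 0 in the other 11 (limma, adjusted p = 0.00818). RPL37 had 953 and 612 in lung, 433 and 311 in spleen and 200 in adipose P348, and none in the other tissues (limma, adjusted p = 0.00583). RPL7L1 had 2264 and 1908 bases in skeletal muscle and at most 929 elsewhere (limma, adjusted p = 0.0264). The others that passed were RPL39, RPS12, RPS21, RPL7, RPS29, RPL34, RPL27 and RPL13A. The call was lost in 15 of 23 alternatives for RPL13A and RPL27, in 14 of 22 for RPL34 and RPS29, in 13 of 22 for RPL7 and in 10 of 23 for RPL7L1. In each of these 12 genes the distal bases were 0 in both libraries of at least 1 tissue.

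Other genes of the translation machinery were described in the same way. The 76 mitochondrial ribosomal protein genes (MRPL and MRPS), which serve a separate ribosome, had a TSS peak in all 16 libraries in 70 cases. Of those 70, 43 differed between tissues in fold (61.4%, against 62.7% of all genes). In skeletal muscle 16 of them were higher (background 13.8% of all genes) and 10 lower (17.8%). In cerebellum 4 of them were higher (background 11.9%) and 14 lower (6.85%). The starts of the 76 genes held a run of 8 pyrimidines in 9.21%, and their promoters the ETS core in 27.6%. The 18 elongation and initiation factors and other genes known for a TOP motif had a TSS peak in all 16 libraries throughout. In fold 12 of 18 differed between tissues (66.7%, background 62.7%), and 38.9% had the run. Of 20 ribosome assembly genes, 18 had a peak in all libraries and 10 of 18 differed (55.6%, background 62.7%). The median relative log2 fold was 0.16 for the ribosomal proteins, 0.21 for the mitochondrial ones, -0.02 for the TOP genes and 0.26 for the assembly genes, and -0.01 over all genes.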

How the data were processed

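ATAC-seq peak lists of the 16 pig libraries were used, and those of 15 cattle libraries were not used here. Per the study's methods and the submitters' processing notes, the authors trimmed reads (Trim Galore 0.4.5), aligned them to the pig genome (BWA 0.7.17), removed low mapping qualities and duplicates (SAMtools 1.10, Picard 2.18.17) and called broad peaks per library with MACS2. A shift of read ends is not given in the sources used here. The deposited lists hold for each peak a score (10 times −log10 q as a whole number), a fold enrichment over the local background, and the −log10 p-value and −log10 q-value computed by the authors' peak caller. The methods state a q-value threshold of 0.05, while the deposited lists reach 0.0999. The lists hold no read counts, and library depths were not used here, so no counting error is given for a fold.

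Genes and starts were taken from RefSeq (Sscrofa11.1). The TSS peak was the peak nearest to any start within 2 kb. Distal bases lay within 10 kb of a start and over 2 kb from every protein-coding TSS. Log2 fold and width were centred on the library median and fitted by tissue with limma 3.58.1 (R 4.3.3) over all genes with a TSS peak in all 16 libraries. Distal bases were fitted as log2(bases + 100), without centring, over genes with a mean of at least 100. Benjamini-Hochberg adjusted p-values under 0.05 were called. The fit was tested on simulated data. No fit dropped or imputed a library.

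Same-numbered libraries come from the same animal, so the numbers pair the samples. Over 28 pairs of tissues, deviations from the tissue means correlated at -0.213 to 0.102 (median 0.0087), with 1 pair above 0.1. A fit with animal as a replicate block was run as an alternative.

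Members and lists were chosen with earlier results of these data known. Named were members lacking a TSS peak in some library, the 10 with the smallest adjusted p for fold and 5 for width, the 5 highest and 5 lowest in mean fold, the 3 widest and 3 narrowest, the 5 with most distal peaks, and the paralogues, RPSA and stalk proteins. Genes named by a tissue contrast or by distal bases, and those at the RPL3L locus, were chosen after their values were seen. RPL39L, in that rule, matched no member. Some members that the rule chose or that passed a test are not reported here, while counts cover all members tested.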

Additional observations from a re-analysis of the deposited data

How the results depend on the processing

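Of 199 counts and medians recomputed under other settings, 170 stayed within the stated limits and 29 moved. Members called for fold between tissues (43 of 77) were 27 of 46 with peaks of q under 0.0001 (58.2% of all genes), 74 with no centring (86.6%) and 27 of 84 with no filter, a missing peak at a fold of 1 (37.8%). Higher single-tissue differences (37) were 78 with no centring (13.0% of all tests) and 19 with no filter (5.24%), and lower ones (47) were 24 at the strict q (6.81%) and 102 with no centring (14.5%). Brain differences (13 higher, 14 lower) were 8 and 8 at the strict q (17.3% and 14.8% of all genes), and the higher ones 7 with no centring (9.34%). Width calls (3) were 5 with no centring (14.2%), and distal calls (12) were 19 in lists of equal length (40.5%). The mean share with a TSS peak (99.0%) was 92.0% at the strict q, 97.2% in lists of equal length and 90.5% with the TSS base inside the peak. Distal peaks per member (0.706) were 0.295, 0.539 and, at over 2 kb from the same gene only, 1.19. Leaving out 1 library gave 29 to 50 fold calls, 19 to 48 higher, 28 to 54 lower, 10 to 15 and 11 to 17 for brain, 2 to 10 for width and 5 to 16 for distal bases. With animal as a replicate block the counts were 42 for fold, 31 higher, 43 lower, 13 and 13 for brain, 3 for width and 12 for distal bases, none moved by over 1.5 times. Keeping genes whose 16 TSS peaks shared a base, a setting chosen after seeing the data, gave 40 of 71 for fold (64.6% of all genes). Of 835 tests of single members, 721 kept their call, 113 lost it and 1 reversed: RPS29 in liver, 0.0692 on the log2 scale with no centring. The causes were not tested. With 2 animals per tissue small differences cannot be assessed, and the depth behind a missing peak was not used here.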
